A study of Mus musculus with 3 samples.

Results

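The genes of store-operated calcium entry and of the inositol trisphosphate (IP3) receptors were examined in RNAseq libraries of the mouse incisor enamel organ. They are the ER calcium sensors Stim1 and Stim2, the plasma membrane channel genes Orai1, Orai2 and Orai3, the inhibitor gene Saraf, and the receptor genes Itpr1, Itpr2 and Itpr3. The members were chosen by symbol, and all 9 were found among the 20937 gene symbols of the deposited table. Whole incisor enamel organs of mice aged 4 weeks were dissected, and 1 library was sequenced for each of 3 Stim1 genotypes. The Stim1 cKO library came from the genotype labelled Stim1 fl/fl Cre+, in which the AmelX-iCre transgene acts on 2 floxed alleles. The Stim1 HT library came from Stim1 fl/wt Cre+, with 1 floxed allele, and the Stim1 Ctrl library from Stim1 fl/fl Cre-, with 2 floxed alleles and no Cre. All 3 genotypes thus carry a floxed allele, and no library with Cre and without a floxed allele was analysed here. AmelX-iCre acts in ameloblasts from the secretory stage onwards, so the other cells of the dissected tissue keep their Stim1 alleles. In such bulk RNA, fewer cells of a type and less RNA per cell cannot be told apart.

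When a receptor activates phospholipase C, the IP3 it makes opens IP3 receptors in the ER membrane and calcium leaves the store. STIM proteins sense the fall of calcium in the ER lumen, move to contacts between the ER and the plasma membrane, and open ORAI channels there. SARAF slows this entry and protects the cell from overfilling of the store. Enamel is built of calcium phosphate, and patients with loss-of-function mutations of STIM1 or ORAI1 have poorly mineralized enamel along with immune deficiency.

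The 3 libraries held between 20216507 and 28265960 counts. The unit of expression level is the TMM-scaled CPM, a count per 1000000 counts of the library after edgeR's correction of that total for composition. The members had between 262 and 4797 counts per library, far above the 3 counts taken as the limit of detection, and all 9 passed the filter on low counts that left 18702 genes. The level of a member in 1 library is therefore well counted, but the spread between mice of a genotype is unknown, because no genotype has a replicate. Intervals given for levels, shares and ratios cover counting error only. The enamel organ was recognisable in each library by Amelx, Ambn and Enam, with all 12 genes of an ameloblast list above 3 counts. The summed level of that list was 23334 CPM in Stim1 Ctrl, 31637 in Stim1 HT and 4565 in Stim1 cKO, although 4 of the 12 genes were over 2-fold above both controls there and 3 were over 2-fold below both. Markers of other tissues were also present and differed between the libraries. The 18 skeletal muscle markers summed to 36624 CPM in Stim1 Ctrl, 28438 in Stim1 HT and 5984 in Stim1 cKO, and 15 of them were over 2-fold below both controls in Stim1 cKO. Listed with Stim1 cKO first, then Stim1 HT, then Stim1 Ctrl, the 11 neuron markers summed to 1417, 349 and 273 CPM, with 9 over 2-fold above both controls. Of 12 photoreceptor markers, 8 were in the table and all 8 were over 2-fold higher in Stim1 cKO, with sums of 1064, 13.0 and 11.7 CPM, while 4 of them in Stim1 HT and 3 in Stim1 Ctrl had 3 counts or fewer. The 10 epithelial markers differed less in sum, at 3908, 3043 and 2905 CPM, but 1 was over 2-fold above both controls in Stim1 cKO and 1 over 2-fold below both. Among the other lists, plasma and B cell markers summed to 189, 22.3 and 5.13 CPM, with 3 of 8 over 2-fold above both controls in Stim1 cKO, and fibroblast markers to 35461, 49442 and 76487 CPM, with 3 of 9 over 2-fold below both. The sums of the lens (247 to 317 CPM), exocrine gland (132 to 490), macrophage (337 to 455) and T cell lists (4.00 to 12.7) were lowest in a control, but single genes differed more: 4 of 5 lens and 5 of 10 exocrine markers were over 2-fold above both controls in Stim1 cKO, and 2 exocrine and 3 of 7 macrophage markers over 2-fold below both.

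**Figure D1:**
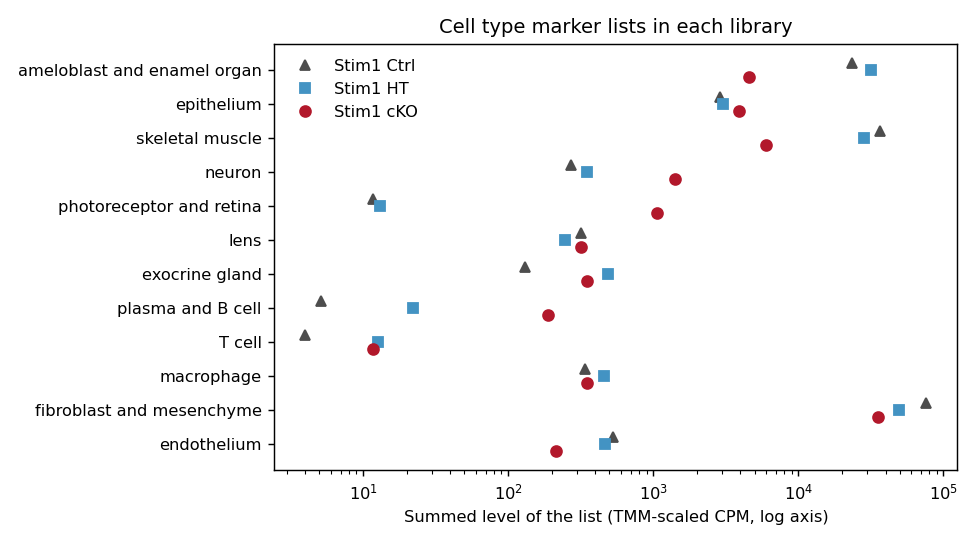
Summed expression level of each cell type marker list (x axis, TMM-scaled CPM, log axis) in the 3 libraries, with 1 point per library. The Stim1 cKO library lies left of both controls for ameloblast and skeletal muscle markers (4565 and 5984 CPM) and right of both for neuron and photoreceptor markers (1417 and 1064 CPM).

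Stim1 encodes the main ER calcium sensor and is the gene targeted in these mice. It lies on chromosome 7 from 102267806 to 102437319 in GENCODE M21 on GRCm38, where its exons cover 10371 bases. Its expression level was 186 CPM in Stim1 Ctrl, 129 in Stim1 HT and 72.8 in Stim1 cKO. The Cre-negative library was thus the highest and the Stim1 cKO library the lowest, with the heterozygous library between them. The level in Stim1 HT was 0.691 of that in Stim1 Ctrl, and the level in Stim1 cKO was 0.391 of it. On the log2 scale the step from Stim1 Ctrl to Stim1 HT was -0.53 (95% interval -0.60 to -0.46) and the step from Stim1 HT to Stim1 cKO was -0.82 (-0.91 to -0.73). Both steps exceed counting error. Of all genes tested, 30.9% had a larger gap between Stim1 HT and Stim1 Ctrl than Stim1, so a difference of this size between these 2 libraries was common. A level that was lowest in Stim1 cKO and highest in Stim1 Ctrl, with Stim1 HT between, was itself found in 25.4% of the genes tested and in 4 of the 9 members, Stim1, Stim2, Orai1 and Itpr1.

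Stim1 kept 1763 counts in the Stim1 cKO tissue. The deposited values are counts per gene, so they add reads from all exons, and the exons removed from the floxed allele are not given in the sources used here. The primers that the study used for Stim1 qPCR read a narrower stretch, which is why their sequences are shown. The forward primer crosses from exon 1 into exon 2 of a Stim1 transcript of 12 exons, from 102268534 to 102354501 on chromosome 7 with the intron between, and its capital is the 1 base that lies in exon 2. The reverse primer lies in exon 3, from 102386118 to 102386138, and the product of 203 bases contains the whole of exon 2.
Stim1 forward: tgaagagtctaccgaagcagA
Stim1 reverse: aggtgctatgtttcactgttg
Both primers are in coding sequence and matched 3 of the 4 coding Stim1 transcripts of GENCODE M21 without a mismatch.

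Set against both controls as 1 group, Stim1 had a log2 fold change of -1.11 ± 0.350 (SE). edgeR's quasi-likelihood test put its Benjamini-Hochberg adjusted p at 0.106, so its fitted difference was over 2-fold but missed the study's limit of 0.01 on the adjusted p. DESeq2 put it at 0.0207, and the alternatives run with edgeR at 0.0638 to 0.147. The test takes its spread from how far the controls lie apart, for the gene itself and over all genes. The prior drawn from all genes had 4.15 degrees of freedom, against 1 residual degree of freedom per gene. For Stim1 the 2 control libraries differ in the number of floxed alleles under Cre. Of all genes tested, 9.37% had a lower log2 fold change than Stim1. Skeletal muscle is a tissue rich in STIM1, and its summed markers were also lowest in Stim1 cKO, as was the sum of the ameloblast list. Of the 12 ameloblast genes, however, 5 were above both controls in Stim1 cKO and 5 below both. The part of muscle and ameloblasts in the level of Stim1 was not tested.

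Stim2 encodes the paralog of STIM1, which responds to smaller losses of calcium from the store. Stim2 lies on chromosome 5 from 53998499 to 54121057. It was at 73.3 CPM in Stim1 Ctrl, 69.5 in Stim1 HT and 49.3 in Stim1 cKO. The controls lay close together, with a log2 ratio of -0.08 whose interval of -0.18 to 0.02 includes 0, and Stim1 cKO was below both. The log2 fold change of Stim2 was -0.53 ± 0.248 (SE, edgeR adjusted p 0.209). The difference was smaller than that of Stim1 but had the same sign in each of the 10 alternatives. The Stim2 qPCR primers are shown for comparison with those of Stim1, since they read exons 2 to 4 of a gene that was not floxed.
Stim2 forward: cgaagtggacgagagtgatga
Stim2 reverse: ggagtgttgttcccttcacatt
The Stim2 primers lie in coding sequence on chromosome 5, from 54053485 to 54053505 and from 54102661 to 54102682, and give a product of 245 bases.

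A share within a gene family does not depend on how the libraries are scaled. Of the STIM counts, Stim1 made up 71.8% in Stim1 Ctrl (95% Wilson interval 70.7–72.8%), 64.9% in Stim1 HT (63.4–66.4%) and 59.6% in Stim1 cKO (57.9–61.4%). The 3 intervals do not overlap, so the share of Stim1 followed the order of the genotypes beyond counting error. With 1 library per genotype, the spread of this share between mice is unknown. How often other pairs of genes show such an order was not examined. Divided by exon length, the ratio of Stim1 to Stim2 was 1.26 in Stim1 Ctrl, 0.917 in Stim1 HT and 0.731 in Stim1 cKO. On that scale Stim1 was the more abundant STIM gene in Stim1 Ctrl and the less abundant one in the libraries with Cre. The exon length used is that of all annotated exons, and the ratio would change if other transcripts of either gene were used. The STIM genes together were at 260 CPM in Stim1 Ctrl, 198 in Stim1 HT and 122 in Stim1 cKO.

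**Figure D2:**
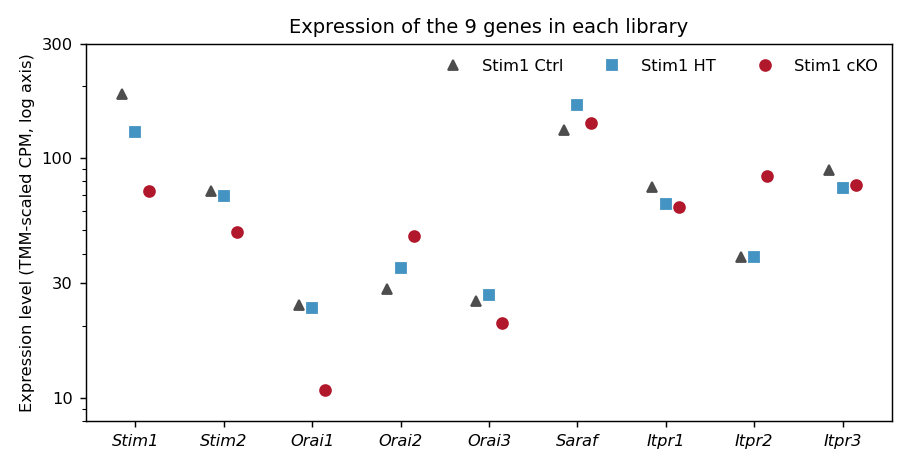
Expression level of each of the 9 genes (y axis, TMM-scaled CPM, log axis) with 1 point per library. Stim1 and Orai1 are lowest in Stim1 cKO (72.8 and 10.8 CPM), whereas Itpr2 and Orai2 are highest there (84.2 and 47.4 CPM).

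Orai1, on chromosome 5 from 123015074 to 123030456, encodes the pore subunit of the calcium release-activated channel that STIM1 opens. It was at 24.3 CPM in Stim1 Ctrl, 23.7 in Stim1 HT and 10.8 in Stim1 cKO. The controls differed by a log2 ratio of -0.04, with an interval of -0.21 to 0.14 that includes 0, and Stim1 cKO was below both at 0.457 of Stim1 HT and 0.445 of Stim1 Ctrl. Its log2 fold change was -1.15 ± 0.298 (SE, edgeR adjusted p 0.0730), the lowest of the 9 genes, and DESeq2 gave an adjusted p of 0.0502. Orai1 had the fewest counts of the 9 genes, 262 in Stim1 cKO. The sums of the skeletal muscle, ameloblast, fibroblast and endothelial marker lists were also lowest in Stim1 cKO. Of the 12 ameloblast genes, however, 5 were above both controls there and 5 below both. The part of these tissues in the level of Orai1 was not tested. An antisense gene, Gm2479, covers 0.305% of the exon length of Orai1.

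The study's Orai1 qPCR primers are shown because they differ from the GENCODE M21 transcripts. Each has 1 mismatch to both coding Orai1 transcripts, given in capitals. Counted from the 5′ end of each primer, with the primer's base first and the transcript's base on the primer's strand last, they are G13C in the forward and G9A in the reverse primer.
Orai1 forward: gctctgctgggtGaagttct
Orai1 reverse: aagtgaacGgcaaagacgat
Their sites lie in exon 2, from 123029350 to 123029369 and from 123029525 to 123029544 on chromosome 5, and the effect of the mismatches on amplification was not tested.

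Orai2, on chromosome 5 from 136147459 to 136170713, encodes a paralog known to form channels with ORAI1 and to limit their current. It was at 28.5 CPM in Stim1 Ctrl, 34.9 in Stim1 HT and 47.4 in Stim1 cKO. Here Stim1 cKO was the highest library, and Stim1 HT was above Stim1 Ctrl by a log2 ratio of 0.29 (0.14 to 0.44). Orai2 had a log2 fold change of 0.58 ± 0.251 (SE, edgeR adjusted p 0.187). Orai3, on chromosome 7 from 127769815 to 127775150, encodes the third channel paralog. It was at 25.3 CPM in Stim1 Ctrl, 26.8 in Stim1 HT and 20.6 in Stim1 cKO, with a log2 fold change of -0.34 ± 0.262 (SE, edgeR adjusted p 0.409).

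The summed level of the ORAI genes was 78.1 CPM in Stim1 Ctrl, 85.4 in Stim1 HT and 78.8 in Stim1 cKO. As TMM-scaled counts without correction for exon length, the sum hardly differed while its makeup did. The near-equal sum depends on that scaling and on the exon lengths. Unscaled, these genes held 2011 of 28265960 counts in Stim1 Ctrl, 1683 of 20216507 in Stim1 HT and 1907 of 21496136 in Stim1 cKO. Of the ORAI counts, Orai1 held 31.1% in Stim1 Ctrl (29.1–33.2%), 27.7% in Stim1 HT (25.7–29.9%) and 13.7% in Stim1 cKO (12.3–15.4%). Orai2 held 36.5% in Stim1 Ctrl (34.4–38.6%), 40.8% in Stim1 HT (38.5–43.2%) and 60.1% in Stim1 cKO (57.9–62.3%). The ratio of Orai1 to Orai2 counts was 0.853 in Stim1 Ctrl (0.767–0.949), 0.680 in Stim1 HT (0.604–0.765) and 0.228 in Stim1 cKO (0.200–0.261). The ratio in Stim1 cKO was thus far below those of the controls, which in turn differed from each other by less. Divided by exon length, Orai1 exceeded Orai2 in Stim1 HT (ratio 1.80) and Stim1 Ctrl (2.26) and was below it in Stim1 cKO (0.605). The length-corrected share of Orai3 was 43.6%, 43.8% and 43.4% in Stim1 Ctrl, Stim1 HT and Stim1 cKO.

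**Figure D3:**
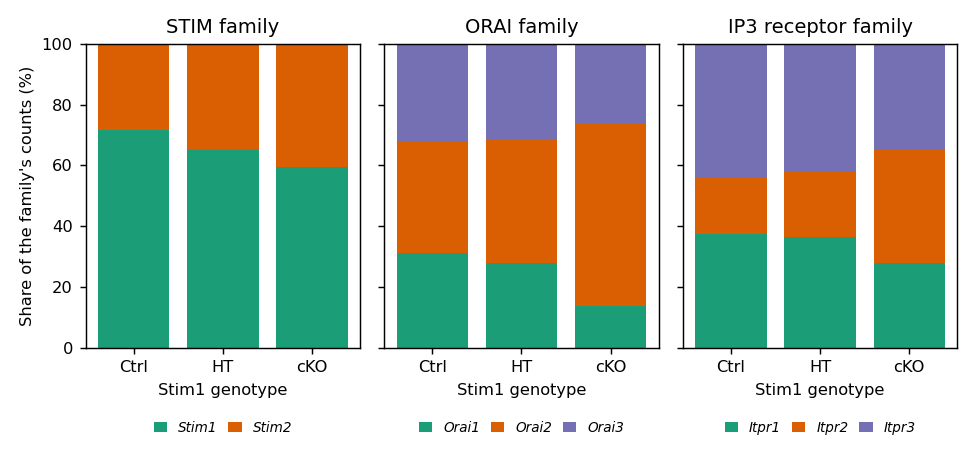
Share of each gene in the counts of its family (y axis, percent) in the Stim1 Ctrl, Stim1 HT and Stim1 cKO libraries, with 1 stacked bar per library. The share of Orai1 is 13.7% in Stim1 cKO against 31.1% in Stim1 Ctrl, and that of Itpr2 is 37.6% against 19.0%.

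Saraf, on chromosome 8 from 34154575 to 34170821, encodes the ER membrane protein that inactivates store-operated entry. It was at 132 CPM in Stim1 Ctrl, 167 in Stim1 HT and 140 in Stim1 cKO. Stim1 cKO thus lay between the controls, and the fitted log2 fold change of -0.09 ± 0.299 (SE, edgeR adjusted p 0.846) changed sign under upper quartile or library size scaling, with a stricter filter on counts and without Stim1 HT. The ratio of Saraf to Stim1 counts was 0.707 in Stim1 Ctrl (0.677–0.739), 1.30 in Stim1 HT (1.23–1.37) and 1.92 in Stim1 cKO (1.81–2.04). The 3 intervals, which cover counting error only, are separate and follow the order of the genotypes. That order was also the one of Stim1 alone (186, 129 and 72.8 CPM), whereas Saraf itself did not follow it. Per exon length, Saraf was the most abundant of the 9 genes in each library, with 45.0 CPM per kb in Stim1 Ctrl, 57.0 in Stim1 HT and 47.8 in Stim1 cKO.

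Itpr2, on chromosome 6 from 146108299 to 146502223, encodes the type 2 IP3 receptor, which is prominent in secretory epithelia and in the liver and heart. It was at 38.6 CPM in Stim1 Ctrl, 38.6 in Stim1 HT and 84.2 in Stim1 cKO. The controls were nearly equal, with a log2 ratio of -0.002 (-0.14 to 0.14), and Stim1 cKO was 2.18-fold above each of them. Itpr2 had a log2 fold change of 1.13 ± 0.229 (SE), and its edgeR adjusted p of 0.0465 was the lowest of the 9 genes but above the limit of 0.01. DESeq2 put it at 0.0168, and the edgeR alternatives at 0.0252 to 0.1002. Itpr2 was the 1 member below an adjusted p of 0.05 with over 2-fold change, limits that 9.68% of all genes met. Higher log2 fold changes than that of Itpr2 in edgeR were found in 21.0% of the genes tested. The sums of the neuron, photoreceptor and epithelial marker lists were also higher in Stim1 cKO. Of the 10 epithelial markers, 6 were above both controls there and 3 below both. The part of these tissues in the level of Itpr2 and Orai2 was not tested.

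Itpr1, on chromosome 6 from 108213096 to 108551109, encodes the type 1 receptor, the main form in neurons and smooth muscle. Its levels were 75.9 CPM in Stim1 Ctrl, 64.7 in Stim1 HT and 62.3 in Stim1 cKO. The interval of the log2 ratio of Stim1 cKO to Stim1 HT, -0.16 to 0.05, includes 0. With TMM scaling, Itpr1 thus did not differ between these 2 libraries beyond counting error. Itpr3, on chromosome 17 from 27057304 to 27122223, encodes the type 3 receptor of epithelial and taste cells. It was at 89.0 CPM in Stim1 Ctrl, 75.0 in Stim1 HT and 77.2 in Stim1 cKO. Stim1 cKO lay between the controls, and its log2 ratio to Stim1 HT of 0.04 (-0.06 to 0.14) again includes 0. The fitted log2 fold changes were -0.18 for Itpr1 (edgeR adjusted p 0.670) and -0.09 for Itpr3 (edgeR adjusted p 0.841), and both changed sign with library size scaling.

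Within the IP3 receptor family, Itpr2 held 19.0% of the counts in Stim1 Ctrl (17.9–20.1%), 21.6% in Stim1 HT (20.3–23.0%) and 37.6% in Stim1 cKO (36.4–38.9%). It was the receptor with the most counts in Stim1 cKO and the one with the fewest in both controls. Corrected for exon length, Itpr3 kept the largest share, at 59.4% in Stim1 Ctrl, 57.5% in Stim1 HT and 48.5% in Stim1 cKO. The ratio of Itpr2 to Itpr1 per exon length was 0.630 in Stim1 Ctrl (0.583–0.680), 0.738 in Stim1 HT (0.674–0.807) and 1.67 in Stim1 cKO (1.57–1.79). The order of these receptors was therefore turned in Stim1 cKO. The summed level of the IP3 receptor genes was 203 CPM in Stim1 Ctrl, 178 in Stim1 HT and 224 in Stim1 cKO.

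The order of the 9 genes by level per kb of exon also differed between the libraries. In Stim1 Ctrl, Saraf was followed by Stim1 at 18.0, Stim2 at 14.3, Orai3 at 11.8, Orai1 at 10.6, Itpr3 at 9.86, Orai2 at 4.69, Itpr1 at 4.14 and Itpr2 at 2.61 CPM per kb. Orai3 did not differ from Orai1, nor Orai1 from Itpr3, beyond counting error. In Stim1 HT, Stim2 at 13.5, Orai3 at 12.5 and Stim1 at 12.4 CPM per kb followed Saraf, and neighbours among these 3 did not differ beyond counting error. In Stim1 cKO, Orai3 at 9.61 and Stim2 at 9.60 CPM per kb came after Saraf without differing beyond counting error, and Stim1 at 7.02 and Orai1 at 4.71 CPM per kb took ranks 6 and 8 of the 9. Itpr1 was last in Stim1 cKO, whereas Itpr2 was last in both controls.

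**Figure D4:**
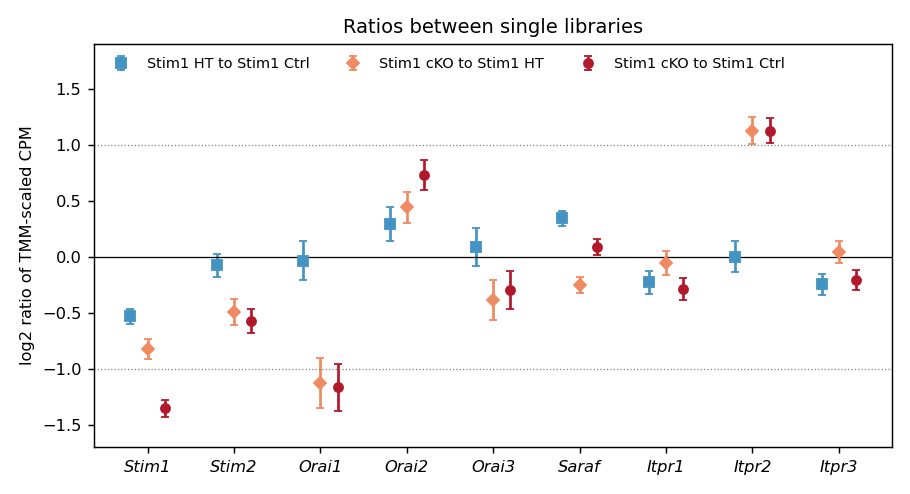
Log2 ratios of TMM-scaled CPM between each pair of libraries for the 9 genes, with bars for 95% intervals that cover counting error only and dotted lines at a 2-fold difference. Both ratios of Stim1 cKO lie below -1 for Orai1 (-1.13 and -1.17) and above 1 for Itpr2 (1.13 and 1.12), while the ratio of Stim1 HT to Stim1 Ctrl stays within 2-fold for all 9 genes.

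At the limits of 0.01 and 2-fold, edgeR called 0 of the 9 genes, against 0.0749% of all genes tested. DESeq2 also called 0 of the 9, against 11.6% of the genes to which it gave an adjusted p. Without adjustment, edgeR's p was under 0.05 for 3 of the 9 genes, against 31.9% of all genes. Of these 3, Itpr2 was higher in Stim1 cKO, as were 18.5% of all genes at that p, and Orai1 and Stim1 were lower, as were 13.4%. A count of 3 in 9 is close to the share of all genes at that p. A fitted difference over 2-fold was likewise found upward for Itpr2 and in 22.9% of all genes, and downward for Orai1 and Stim1 and in 11.3%. Each of the 3 was under 2-fold with some scalings, at log2 fold changes of -0.98 (upper quartile) and -0.85 (library size) for Stim1, -0.89 (library size) for Orai1, and 0.96 (Actb) and 0.73 (epithelial markers) for Itpr2, and Stim1 also without Stim1 Ctrl (-0.82). With TMM scaling, 5 of the 9 genes were below both controls in Stim1 cKO and 2 were above both, against 42.1% and 43.6% of all genes. With library size as the only scaling these counts were 3 and 4. That scaling raised the median log2 fold change of all genes by 0.26. The median log2 fold change was -0.18 over the 9 genes and -0.01 over all genes tested. Stim1 cKO and the controls are 1 and 2 libraries, so these counts describe these libraries and have no replicate check.

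Between Stim1 HT and Stim1 Ctrl, no test was possible. The log2 ratios of the 9 genes ranged from -0.53 for Stim1 to 0.34 for Saraf, so none differed by more than 2-fold, a gap that 13.5% of all genes showed. Stim1 was the member with the largest gap between these libraries. For Stim2, Orai1, Orai3 and Itpr2 the interval of the ratio included 0, and for Orai2, Saraf, Itpr1 and Itpr3 it did not. With library size as the only scaling, 3 of the 9 genes were lower in Stim1 HT than in Stim1 Ctrl, whereas 6 were with TMM scaling.

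The genes whose pattern over the 3 libraries was most like that of Stim1 were Ranbp10, Arhgef40 and Fech. Likeness was measured as the distance between the pairs of log2 ratios of Stim1 HT and Stim1 cKO to Stim1 Ctrl, among the 5230 genes that averaged 1000 counts or more per library. Ranbp10 had log2 ratios of -0.51 and -1.33, at a distance of 0.038. Arhgef40 had -0.52 and -1.39, and Fech had -0.52 and -1.32, both at a distance of about 0.04. With 3 libraries many genes can share a pattern, and 20 of the candidates lay within 0.1 of Stim1.

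The other genes of this calcium pathway were taken from 7 lists with 99 genes in all, of which 96 were in the table and were tested. edgeR called 0 of the 96 at the thresholds above, and 38 had an unadjusted p under 0.05, which is 39.6% against 31.9% of all genes. DESeq2 gave an adjusted p to 93 of them and called 20, 8 higher and 12 lower in Stim1 cKO, which is 21.5% against 11.6% of all genes with one (6.3% higher and 5.26% lower). The median log2 fold change over the 96 genes was -0.09. The lists were chosen with earlier results of these data known, so these shares only describe these libraries.

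IP3 is made by phospholipase C, which Gq proteins activate. Of 18 tested genes of this group, DESeq2 called 3 (16.7%, against 11.6% of all genes), all higher in Stim1 cKO. Gnaq and Plcb4 were among these 3, whereas Plcb1 and Plch1 were not. Gnaq, which encodes the alpha subunit of Gq, was at 119 CPM in Stim1 Ctrl, 115 in Stim1 HT and 442 in Stim1 cKO, with a log2 fold change of 1.92 (edgeR adjusted p 0.0256). The controls lay together and Stim1 cKO stood well above them. Plcb4, a Gq-activated phospholipase C known from retina and brain, was at 31.9 CPM in Stim1 Ctrl, 27.3 in Stim1 HT and 75.1 in Stim1 cKO (log2 fold change 1.34, edgeR adjusted p 0.0364). Plcb1 had a log2 fold change of 1.36 (edgeR adjusted p 0.0600) and Plcg1, which tyrosine kinase receptors activate, one of -0.53 (edgeR adjusted p 0.229). The neuron and photoreceptor marker lists were also highest in Stim1 cKO, and their part in the levels of Gnaq and Plcb4 was not tested. Plch1 had the highest log2 fold change of the group, 2.09, and Plcd4 the lowest, -1.26. Exons of the antisense gene Zfp142 cover 29.8% of the exon length of Plcd4, whose counts are uncertain for that reason.

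Of 7 genes that turn IP3 over, DESeq2 called 2 (28.6%, against 11.6% of all genes), both lower in Stim1 cKO. Inpp5a, which encodes a phosphatase that inactivates IP3, was at 113 CPM in Stim1 Ctrl, 99.3 in Stim1 HT and 46.5 in Stim1 cKO, a log2 fold change of -1.19 (edgeR adjusted p 0.0588). Itpkb, a kinase that converts IP3 to IP4, had one of -0.63 (edgeR adjusted p 0.165). Impa2, an inositol monophosphatase, was lowest of the list at -2.63 (edgeR adjusted p 0.0181), although an antisense transcript covers 23.6% of its exon length. Itpka was the highest at 1.47, with at most 92 counts in a library.

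Proteins that bind IP3 receptors gave 17 tested genes, of which 16 had an adjusted p in DESeq2. It called 1 higher and 1 lower (12.5%, close to the 11.6% of all genes). Ahcyl1, which encodes IRBIT, a protein that competes with IP3 for its receptor, was at 160 CPM in Stim1 Ctrl, 150 in Stim1 HT and 148 in Stim1 cKO, so the libraries hardly differed. Itprid2, which anchors IP3 receptors to actin, had a log2 fold change of 0.46 (edgeR adjusted p 0.273). Mrvi1, the IP3 receptor-associated substrate of cGMP kinase, was between the controls in Stim1 cKO, with 13.2 CPM in Stim1 Ctrl, 7.05 in Stim1 HT and 9.46 in Stim1 cKO. The 2 genes called by DESeq2 were Itprid1, highest of the list at 3.56, and Itpripl2, lowest at -1.34. Itprid1 had only 35 counts in Stim1 HT and 19 in Stim1 Ctrl.

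Ryanodine receptors are the other family of calcium release channels of the ER. Ryr1, the form of skeletal muscle, was the most abundant, with 419 CPM in Stim1 Ctrl, 260 in Stim1 HT and 178 in Stim1 cKO. It followed the order of the genotypes, as Stim1 did, with a log2 fold change of -0.93 (edgeR adjusted p 0.192). Ryr3 was at 53.8, 34.9 and 8.96 CPM in the same order of libraries, a log2 fold change of -2.31 (edgeR adjusted p 0.0317). Ryr2, the form of heart and brain, was highest in Stim1 cKO, with 2.10, 1.83 and 16.6 CPM and a log2 fold change of 3.08 (edgeR adjusted p 0.0253). DESeq2 called Ryr2 and Ryr3, 66.7% of these 3 genes against 11.6% of all genes. Ryr1 is itself one of the 18 skeletal muscle markers.

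TRPC channels have been proposed to carry store-operated current beside ORAI. Of 6 tested, 4 had an adjusted p in DESeq2, which called 1, Trpc1 (25%, against 11.6% of all genes). Trpc1 was at 4.86 CPM in Stim1 Ctrl, 4.92 in Stim1 HT and 19.0 in Stim1 cKO. The log2 fold change of Trpc1 was 1.96 (edgeR adjusted p 0.0421).

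Of 24 regulators of STIM and ORAI, DESeq2 called 2 higher and 1 lower (12.5%, close to the 11.6% of all genes). Homer2, which encodes a scaffold that links calcium channels and IP3 receptors, was at 39.9 CPM in Stim1 Ctrl, 38.1 in Stim1 HT and 168 in Stim1 cKO. It had the highest log2 fold change of the list, 2.11 (edgeR adjusted p 0.0181). Cav1, which encodes caveolin-1 of membrane caveolae, was the lowest at -1.96 (edgeR adjusted p 0.0322), with 331 CPM in Stim1 Ctrl, 354 in Stim1 HT and 88.1 in Stim1 cKO. Markers of endothelium, where caveolin-1 is abundant, summed to 526 CPM in Stim1 Ctrl, 466 in Stim1 HT and 213 in Stim1 cKO, and their part in the level of Cav1 was not tested. Tmem110, which encodes the STIM-activating protein STIMATE, was between the controls, with 27.7 CPM in Stim1 Ctrl, 29.4 in Stim1 HT and 28.2 in Stim1 cKO. Asph, whose isoform junctate binds STIM1, had a log2 fold change of -0.60 (edgeR adjusted p 0.226), and Stc2, whose product inhibits STIM1, one of 0.29 (edgeR adjusted p 0.575). For the ORAI1 regulators, it was 0.96 for Cracr2b (edgeR adjusted p 0.0690), with an antisense transcript over 50.8% of its exon length, and 1.85 for Cracr2a (edgeR adjusted p 0.183), which had 6 counts in Stim1 HT.

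The buffers and leak channels of the ER formed the list with the lowest median but 1, -0.62 over 21 genes. DESeq2 called 7 of them (33.3%, against 11.6% of all genes), all lower in Stim1 cKO. Calr, which encodes calreticulin, the main luminal calcium buffer outside muscle, was at 785 CPM in Stim1 Ctrl, 803 in Stim1 HT and 531 in Stim1 cKO, with a log2 fold change of -0.58 (edgeR adjusted p 0.293). The largest differences were in the calcium buffers of the muscle store. Casq2 had a log2 fold change of -3.40 (edgeR adjusted p 0.0184) and Casq1, a member of the muscle marker list, one of -2.98 (edgeR adjusted p 0.0227). Casq1 was at 653 CPM in Stim1 Ctrl, 513 in Stim1 HT and 73.8 in Stim1 cKO. Tmco1, a leak channel that opens when the ER store is overfull, was between the controls, with 46.1 CPM in Stim1 Ctrl, 64.9 in Stim1 HT and 51.0 in Stim1 cKO. Psen2, a presenilin, was the highest of the list at 1.19 (edgeR adjusted p 0.0461).

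**Figure D5:**
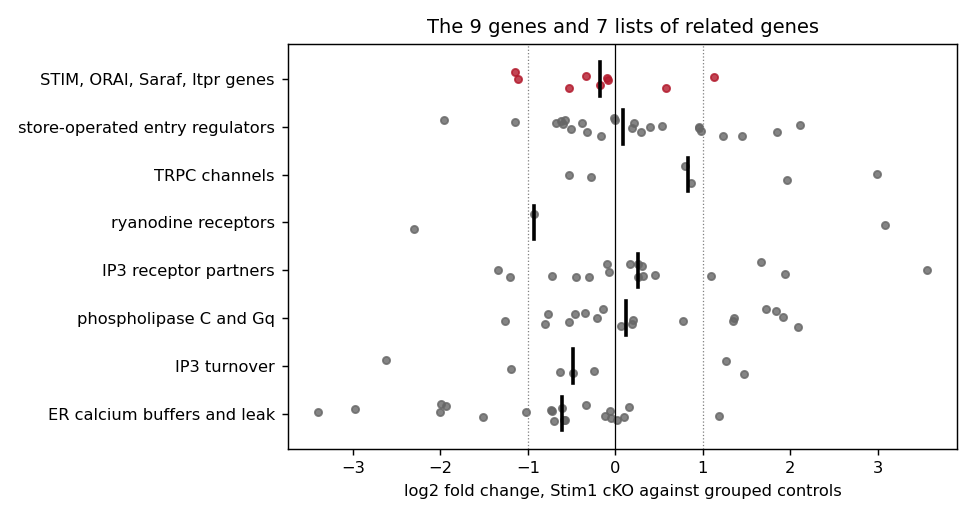
Log2 fold change of Stim1 cKO against the grouped controls (x axis) for the 9 genes and for 96 genes of 7 related lists, with 1 point per gene, a bar at each list's median and dotted lines at a 2-fold change. The 9 genes lie between -1.15 and 1.13, whereas the related genes reach from -3.40 for Casq2 to 3.56 for Itprid1.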

How the data were processed

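RNAseq was performed on 1 enamel organ library per genotype. The authors trimmed low-quality bases, mapped the read pairs with STAR to a mouse genome, and deposited unnormalized counts per gene symbol. Versions, genome build, annotation, counting tool and strand setting are not given in the sources used here. Every listed gene has at least 1 count in every library. Stim1 cKO was compared with the grouped controls, as in the study, with edgeR 4.0.16 (R 4.3.3), filterByExpr, TMM scaling and a quasi-likelihood test, with p-values adjusted over 18702 genes (Benjamini-Hochberg). The standard error of a log2 fold change was taken as its size divided by the square root of F. DESeq2 1.42.0 was an alternative. Both were tested on simulated counts of this design, with a dispersion of 0.1 and equal means in the controls. There neither called the genes changed 2-fold, about as much as the members that differed most. A call also needs a fitted change over 2-fold, a limit that lies at this simulated size. The absence of calls among the members therefore does not show equal levels. The common dispersion was 0.106, with 1 residual and 4.15 prior degrees of freedom per gene. Total counts per library were 20216507 to 28265960. Shares of counts and ratios of genes within a library have 95% Wilson intervals. Ratios between libraries, and those between neighbours in the order of the members, have exact conditional binomial ones. Gene positions and exon lengths were taken from GENCODE M21 (GRCm38), in which 20712 symbols were found. Primers were read from the study's supplementary table and matched to GENCODE transcripts.

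The genes named were the 9 members, preset genes of the 7 related lists, the genes with the highest and lowest log2 fold change in each list among genes averaging 50 counts or more, the marker lists, and the 3 genes nearest to Stim1 in pattern. The members and lists were chosen with earlier results of these data known. Trpc2, Itprip and Plcz1 were not analysed here. 1 of the preset genes is not reported here.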

Additional observations from a re-analysis of the deposited data

How the results depend on the processing

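The scalings moved the median log2 fold change of all genes by 0.13 (upper quartile), 0.26 (library size), -0.17 (Actb) and -0.40 (epithelial markers). The number of the 9 genes called was 0 in edgeR and in each alternative that kept the threshold of 0.01. It was 1, Itpr2, in edgeR at an adjusted p under 0.05. Of the related genes, edgeR called 0, edgeR without a filter 8, DESeq2 20, and edgeR at an adjusted p under 0.05 called 19, where the shares of all genes called were 0.0749%, 4.33%, 11.6% and 9.68%. With library size as the only scaling, 3 of the 9 genes were lower than both controls, 4 were higher than both, and 3 were lower in Stim1 HT than in Stim1 Ctrl. The log2 fold change changed sign for Saraf with upper quartile scaling (0.027), library size scaling (0.157) and a mean of at least 50 counts (0.011), for Itpr1 with library size scaling (0.086), and for Itpr3 with upper quartile scaling (0.042), library size scaling (0.174) and a mean of at least 50 counts (0.022). Leaving out 1 control, which leaves no residual degrees of freedom and so no test, also turned Saraf (-0.26 without Stim1 Ctrl, 0.087 without Stim1 HT) and Itpr3 (0.042 without Stim1 Ctrl, -0.20 without Stim1 HT). The cause of the changes with the filter was not tested. Stim1, Stim2, Orai1, Orai2, Orai3 and Itpr2 kept their sign in all 10 alternatives, though Stim1, Orai1 and Itpr2 were not over 2-fold in each. Per kb of exon, Stim1 held 55.7% of the STIM family in Stim1 Ctrl, 47.8% in Stim1 HT and 42.2% in Stim1 cKO, Orai1 held 39.1%, 36.1% and 21.3% of the ORAI family, and Itpr2 15.7%, 18.0% and 32.2% of the IP3 receptor family. These length-corrected shares keep the order of the libraries found with counts. No paired analysis was possible because each genotype has 1 library and the labels give no shared replicate numbers. The single library per genotype and the differences in marker lists between the libraries limit these results.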
